A study of Homo sapiens with 4 samples.

Results

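A set of 5 genes of the contractile and actin-binding machinery, ACTA2, CNN1, FLNA, FLNC and ACTN4, were described through the peaks that a chromatin immunoprecipitation and sequencing (ChIP-seq) experiment on ZNF416 placed nearest to them. The members were selected on a measured value, namely that the authors' peak list credits a peak to them in its gene name column, and they held 5 of its 1386 peaks, 1 for each gene. The list came from IMR90 cells, an established line of human lung fibroblasts, that carried a FLAG-tagged ZNF416 gene from a lentiviral vector under puromycin selection. There were 2 libraries of FLAG-bound chromatin and 2 of input chromatin, and all 4 came from cells with the tagged gene and no further treatment. The tagged protein was thus supplied by a vector, in 1 cell line, and no FLAG pull-down from cells without it was among these libraries. No value of a single library was analysed here, so the depth is unknown and no value below has a spread between replicates.

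Fibroblasts exert force through bundles of actin filaments that are crosslinked, anchored at adhesions and pulled by myosin. Fibroblasts that become myofibroblasts add smooth muscle proteins to these bundles, and smooth muscle actin is the usual marker of that change. Many of these genes are driven by serum response factor (SRF), which binds the CArG box, and ZNF416 is a zinc finger protein that the study placed in the activation of fibroblasts by mechanical cues.

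Start regions of 4 members are shown because ACTA2 and ACTN4 have alternative starts to which a peak can be credited, and because the 4 genes differ in motifs of SRF and TEAD factors there. Each window runs from 250 bases before a start to 50 after it, is read from 5′ to 3′ on the strand of the gene, and comes from RefSeq on GRCh38.p14. The peaks are on hg19, no position was carried from one build to the other, and the sequence under the peaks was not analysed here. ACTA2 has a pair of such windows, whose starts lie 38564 bp apart. The upstream one is at chr10:88991288-88991587 and the downstream one at chr10:88952724-88953023, both on the minus strand. Capitals in the upstream window mark the 193 bases that it shares with a window of FAS on the other strand. Capitals in the downstream window mark CArG boxes with at most 1 departure and the word GGAATG, which TEAD factors bind.
ACTA2 upstream start: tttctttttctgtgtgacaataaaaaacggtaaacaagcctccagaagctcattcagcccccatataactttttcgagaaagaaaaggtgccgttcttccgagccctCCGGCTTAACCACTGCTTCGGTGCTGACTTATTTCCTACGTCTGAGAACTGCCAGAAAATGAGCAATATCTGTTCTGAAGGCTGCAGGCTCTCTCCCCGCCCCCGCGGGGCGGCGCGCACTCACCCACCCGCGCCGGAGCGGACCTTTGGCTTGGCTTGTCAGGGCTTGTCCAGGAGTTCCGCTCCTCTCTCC
ACTA2 downstream start: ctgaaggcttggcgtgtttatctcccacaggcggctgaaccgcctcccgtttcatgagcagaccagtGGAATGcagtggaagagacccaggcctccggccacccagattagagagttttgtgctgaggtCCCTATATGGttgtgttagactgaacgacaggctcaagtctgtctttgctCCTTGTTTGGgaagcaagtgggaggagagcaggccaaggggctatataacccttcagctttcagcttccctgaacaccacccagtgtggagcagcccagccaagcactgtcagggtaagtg

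The windows of FLNC (chr7:128830156-128830455, plus strand), of FLNA (chrX:154374585-154374884, minus strand) and of the downstream start of ACTN4 (chr19:38693871-38694170, plus strand) follow. Capitals mark GGAATG, read on the opposite strand, in FLNC, the CArG box in FLNA and a CArG box with 1 departure in ACTN4.
FLNC: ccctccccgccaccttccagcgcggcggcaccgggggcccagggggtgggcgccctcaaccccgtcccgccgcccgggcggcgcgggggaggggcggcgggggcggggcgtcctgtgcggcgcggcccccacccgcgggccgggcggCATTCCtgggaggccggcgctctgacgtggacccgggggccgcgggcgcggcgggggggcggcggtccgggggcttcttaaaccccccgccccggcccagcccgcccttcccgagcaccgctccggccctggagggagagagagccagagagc
FLNA: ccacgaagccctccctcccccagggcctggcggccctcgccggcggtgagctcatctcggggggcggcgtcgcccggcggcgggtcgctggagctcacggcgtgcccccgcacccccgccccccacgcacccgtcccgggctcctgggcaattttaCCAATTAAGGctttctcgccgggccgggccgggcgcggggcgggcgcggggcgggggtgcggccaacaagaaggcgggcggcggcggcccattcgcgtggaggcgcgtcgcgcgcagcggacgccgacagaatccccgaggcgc
ACTN4 downstream start: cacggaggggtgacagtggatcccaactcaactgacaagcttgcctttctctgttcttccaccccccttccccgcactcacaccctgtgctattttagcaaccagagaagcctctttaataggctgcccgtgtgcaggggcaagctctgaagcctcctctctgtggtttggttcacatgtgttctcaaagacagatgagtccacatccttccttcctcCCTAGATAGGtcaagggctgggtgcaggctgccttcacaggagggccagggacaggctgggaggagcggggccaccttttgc

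The CArG box was searched on both strands with its core of A and T intact, and also with at most 1 G or C allowed in the core, so that each intact box counts in both searches. Of the 7 windows of the members, 1 held an intact box, that of FLNA, which began 94 bp upstream of the start. Over all 35116 windows of the table, 1.29% held one. With 1 departure allowed, 4 of the 7 windows held a box, against 8.13% of all windows. The downstream ACTA2 window held a pair, which began 121 and 71 bp upstream of the start, and the upstream ACTA2 window held none. In the remaining ACTN4 window, upstream, a box began 101 bp before the start. GGAATG, searched on both strands, was in 2 of the 7 windows (the downstream ACTA2 window and FLNC) and in 14% of all windows. TATAAA was in 0 of the 7 and in 11.5% of all. The window of CNN1, which is not printed, held none of the motifs searched. The windows also differed in base composition. FLNC was 83.3% G and C and FLNA 78.3%, while the ACTA2 windows held 54.7% (upstream) and 55.0% (downstream). CNN1 held 61.3%, and the ACTN4 windows held 74.7% (upstream) and 56.7% (downstream). The median over all windows was 58.7%. These matches are letters in a window and not binding sites. By the deposited hg19 distances, no member's peak reached into the stretch from 250 bp before to 50 bp after its nearest start. The starts of the windows on GRCh38.p14 may differ from those starts, so whether a peak overlaps a window was not measured.

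All 5 peaks fell in the middle or lower part of the list by the authors' score. It is a whole number per peak whose scale is not stated, so it was used only to order peaks within this list, where it ran from 13 to 355 with a median of 62. ACTA2 scored 75, FLNC 62, CNN1 57, ACTN4 46 and FLNA 32. The median of the members was 57. The peaks of ACTA2 and FLNC stood at or above the median of the list and the other 3 stood below it. None of the 5 reached the upper quartile of 87, and only FLNA fell below the lower quartile of 43. With ties sharing the mean rank, ACTA2 stood at rank 487, FLNC at 688, CNN1 at 757, ACTN4 at 966 and FLNA at 1186.5 of 1386. Ties were common, since 24 other peaks had the score of CNN1 and 20 others that of FLNC. The order of FLNC and CNN1, 5 score units apart, has no error attached to it.

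**Figure D1:**
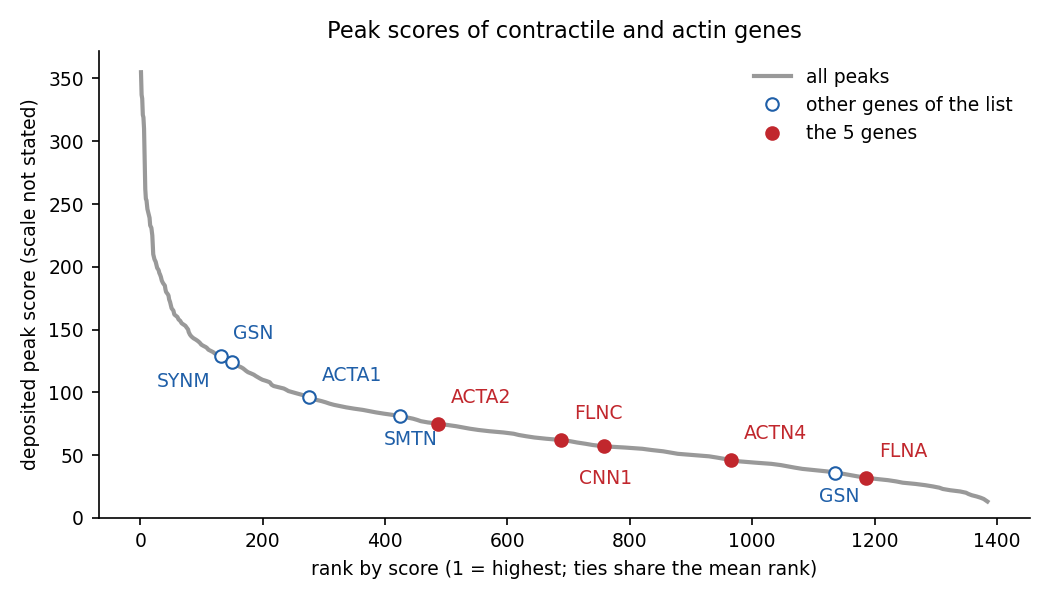
Deposited score of each of the 1386 peaks against its rank (grey line), with the 5 genes as filled points and the other genes of the contractile and actin list as open points. The members run from ACTA2 at a score of 75 down to FLNA at 32, and the open points at SYNM, ACTA1, SMTN and the stronger GSN peak lie above ACTA2, with the weaker GSN peak (score 36) below ACTN4.

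All 5 genes were nearest to a peak because they were chosen for it, and the share over all 20052 protein-coding genes was 3.66% at any distance. Within 1 kb of a start, the count was 2 of 5 (ACTA2 and FLNC), and over all protein-coding genes it was 1.34%. Nothing is read from either count. That each member had a single peak was also common, since 880 of the 979 genes nearest to a peak (89.9%) had only 1.

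ACTA2 encodes smooth muscle actin, the filament protein that marks myofibroblasts. Its peak spanned 153 bp on chromosome 10 (90750910 to 90751062), with 618 of the 1386 peaks wider. It was 19th by score among the 62 peaks of the chromosome and 66th among the 188 peaks that the annotation placed in promoters. Its centre lay 168 bp downstream of the start of the ACTA2 transcript NM_001141945, and its edges at 92 and 244 bp.

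The promoter that the annotation names for this peak is that of NR_135314, a transcript of FAS, the gene of a death receptor. FAS is transcribed from the opposite strand. The start of the FAS transcript NM_152872 lay 598 bp downstream of the ACTA2 start within ACTA2, by the distances of the list. This transcript and NM_001141945 thus run towards each other and overlap. The centre of the ACTA2 peak was 430 bp downstream of that FAS start and therefore lay between the starts of these transcripts. FAS has 3 starts in RefSeq on GRCh38.p14, the last 633 bp after the first. By the windows of that build, the last FAS start lies on the upstream side of the upstream ACTA2 start, so transcripts from that pair run apart. Its window is the one that shares 193 bases with that of ACTA2. Which of these starts NR_135314 uses was not determined. A promoter named for another gene than that of the nearest start was not rare. Among 187 promoter peaks whose annotated transcript matched a gene, 28 (15.0%) named another gene than that of the nearest start, and 25 of these lay downstream of the nearest start. The ACTA2 peak was the 6th strongest of the 28, whose median score was 53.5.

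The ACTA2 peak had a close neighbour credited to FAS itself (90749999 to 90750178). That peak was 180 bp wide and scored 17, and only 14 of the 1386 peaks scored lower. Its centre lay 467 bp upstream of the FAS start of NM_152872 and 1066 bp downstream of the ACTA2 start, so it too lay within ACTA2. The centres of both peaks were 898 bp apart, with 731 bases between their edges. Neighbours within 1 kb were found for 113 of the 1080 peaks on chromosomes (10.5%). Of the ACTA2 starts in RefSeq, the upstream one shares its window with FAS, and the downstream one, with the near-CArG pair shown above, lies 38564 bp farther along the gene. No peak of the list was nearest to a downstream ACTA2 start. Whether the peak bears on ACTA2, FAS or both was not tested.

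**Figure D2:**
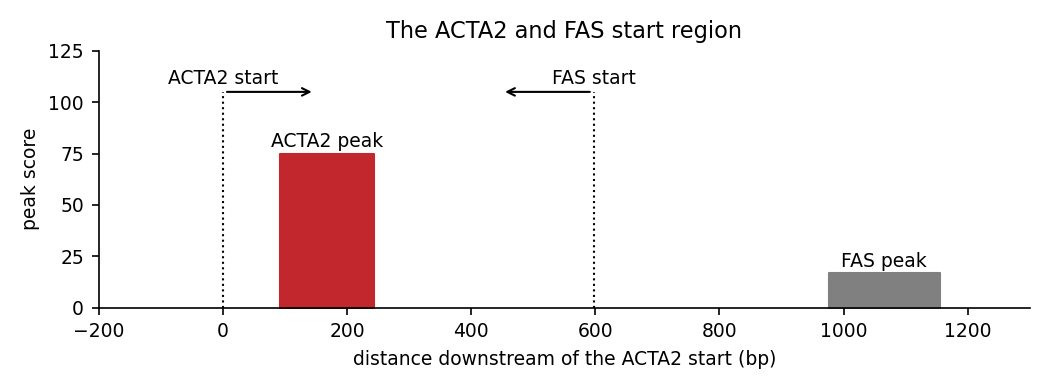
Peaks around the starts of ACTA2 (NM_001141945) and FAS (NM_152872) on hg19, by distance downstream of the ACTA2 start in bp. Bar height gives the deposited score and arrows the direction of transcription. Other FAS starts are not drawn. The ACTA2 peak (score 75) lies between both starts and the FAS peak (score 17) lies beyond the FAS start, within ACTA2.

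CNN1 encodes calponin, a protein of smooth muscle that binds actin and restrains myosin. Its peak on chromosome 19 (11646777 to 11646887) was 111 bp wide, narrower than 1196 others. By the annotation it was intergenic, with its centre 2834 bp before the start of NM_001308342. It was 46th by score of the 76 peaks on the chromosome and 176th of 370 intergenic peaks. No transcript was named for it, so CNN1 was credited with it by distance alone.

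Another peak lay within 100 kb of it, on the side away from CNN1. Its centre was 53360 bp off (11593411 to 11593534), and it was 124 bp wide with a score of 33. The annotation placed it at the transcript end of NM_138783, a transcript of ZNF653, and 1611 bp upstream of ELAVL3, the gene of a neuronal RNA-binding protein. On the other side the next peak, nearest to ZNF20, was 605143 bp from the CNN1 peak.

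FLNC encodes filamin C, an actin crosslinker of muscle, and its peak was the widest of the 5. It spanned 188 bp on chromosome 7 (128469373 to 128469560), with 416 of the list's peaks wider. By score it was 29th of the 56 peaks on the chromosome and 92nd of the 188 promoter peaks. Its centre lay 994 bp upstream of the start of NM_001127487, with its edges at -1088 and -901 bp relative to the start. No promoter peak of the list lay farther upstream of its nearest start, so the place of FLNC among promoters depends on the width of the window. Its nearest neighbour in the list, a peak nearest to MIR129-1, was 660512 bp away.

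FLNA encodes filamin A, the filamin of most cells, which crosslinks actin and links it to integrins. Its peak on the X chromosome (153601393 to 153601499) had the lowest score of the members, 32, and 192 peaks of the list scored lower. It lay in intron 1 of 47 of NM_001110556, 1556 bp downstream of the start. The X chromosome carried 5 peaks in all, of which the FLNA peak was the 4th by score and the last along the chromosome. The nearest neighbour in the list, at L1CAM, was 460466 bp away with a score of 100.

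ACTN4 encodes alpha-actinin-4, which bundles actin filaments in cells other than muscle. Its peak on chromosome 19 (39182889 to 39182995) scored 46 and lay in intron 1 of 20 of NM_001322033, 44653 bp downstream of the start, the farthest of the 5. It was 53rd by score of the 76 peaks on the chromosome and 312th of 467 intronic peaks. RefSeq on GRCh38.p14 also has a start within ACTN4, whose window is shown above, 46472 bp downstream of the upstream one. These lengths come from different builds and may be counted from different upstream starts, so the position of the peak relative to that start was not measured. The nearest peak, at FBXO17, was 300935 bp away.

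**Figure D3:**
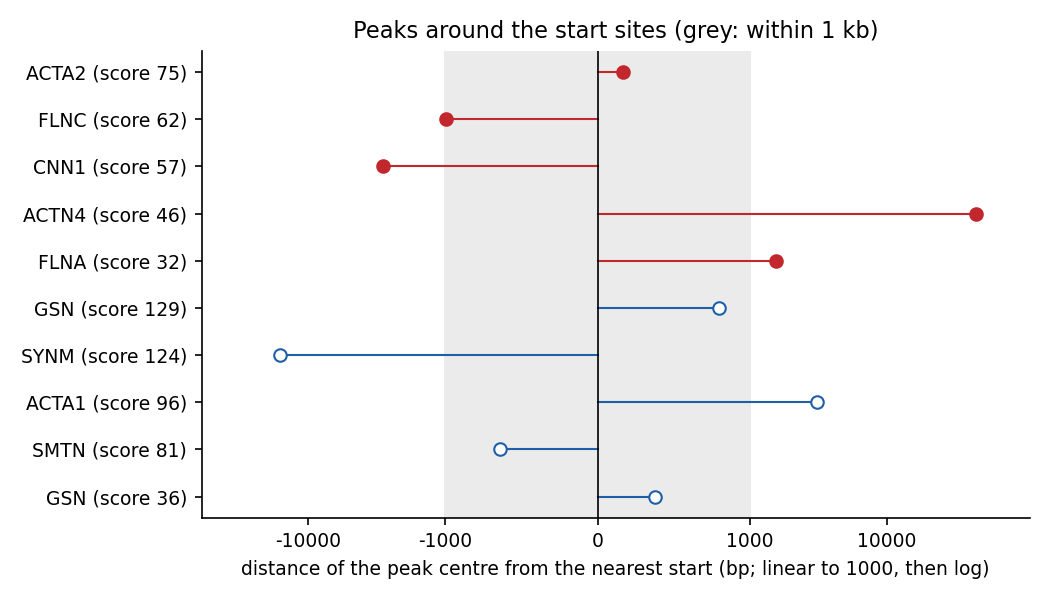
Signed distance in bp of each peak centre from its nearest start (upstream is negative; the axis is linear to 1000 bp and logarithmic beyond), with the 5 genes filled and the other listed genes open. Of the members, ACTA2 at 168 bp and FLNC at -994 bp lie within 1 kb, and ACTN4 lies farthest, at 44653 bp.

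The members were credited by their nearest start, so their place around it is a description. Upstream of the start lay 2 peaks (CNN1 and FLNC) and downstream 3 (ACTA2, FLNA and ACTN4). The annotation put 2 in promoters, 2 in intron 1 and 1 between genes. In the whole list, 218 of the 467 intronic peaks (46.7%) were in intron 1. The annotation gave none of the 5 a repeat label, and such a label was on 210 of the 1080 peaks on chromosomes (19.4%). Whether it can give that label to a peak in a promoter was not examined, and 2 of the 5 are in promoters. Nothing is read from this count. Another peak lay within 100 kb for 2 of the 5 (ACTA2 and CNN1), and for 287 of the 1080 peaks on chromosomes (26.6%). The median gap to the nearest peak on the same chromosome was 401008 bp.

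The narrowest members were ACTN4, FLNA and CNN1. ACTN4 and FLNA were both 107 bp wide, which is the smallest width in the list and was shared by 104 peaks (7.50%). The scores of these 104 ran from 17 to 103, with a median of 49. Of the 5 peaks, 3 were narrower than the median width of 145 bp.

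**Figure D4:**
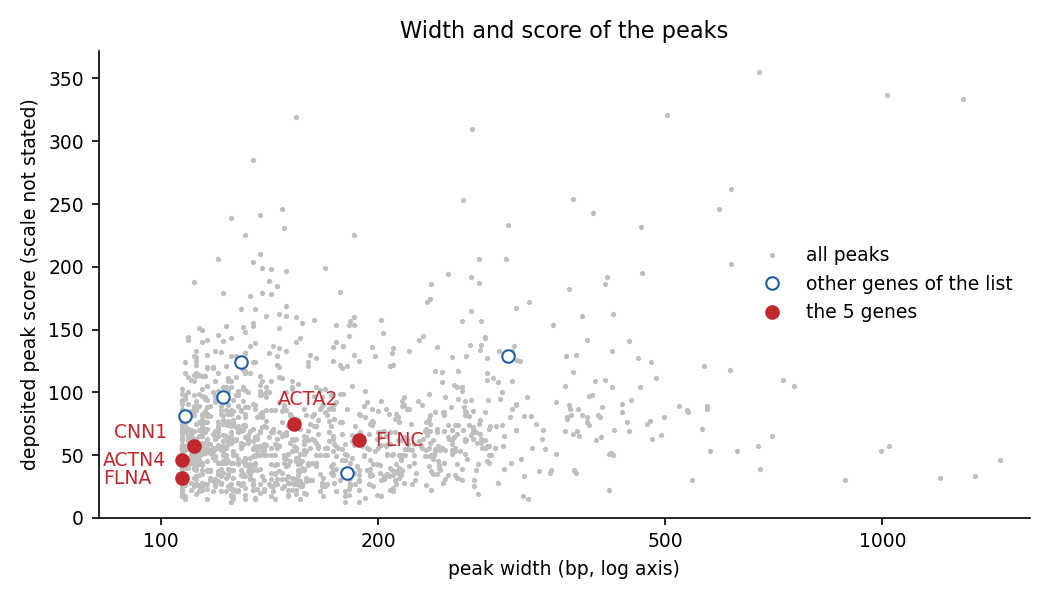
Width in bp (log axis) against deposited score for all 1386 peaks (grey), the 5 genes (filled) and the other listed genes (open). FLNA and ACTN4 lie at the smallest width, 107 bp, and FLNC is the widest member at 188 bp.

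To name peaks like those of the members, the 2 peaks of the same annotation class with the smallest summed difference in rank of score, width and distance were taken for each. For ACTA2 these were a peak at the pseudogene PLEKHM1P1 (score 72, 202 bp upstream) and one at PKM, a gene of glycolysis (score 82, 68 bp downstream). For FLNC they were peaks of score 63 upstream of USP3, which encodes a deubiquitinating enzyme, at 819 bp, and of LNPEP, which encodes an aminopeptidase, at 723 bp. The CNN1 peak was closest to one at LINC00685, a long non-coding RNA gene (score 56, 3010 bp downstream). That peak was the only one the list placed on the Y chromosome, and whether its reads came from there was not tested. The next was on an unplaced contig at MIR6724-2 (score 63). For ACTN4 they were intronic peaks nearest to TSPAN9 (score 50), a tetraspanin gene, and to MRPS10 (score 49), a gene of the mitochondrial ribosome. The first lay in TSPAN9 itself, and the second in intron 4 of 17 of TRERF1, 61615 bp upstream of MRPS10. For FLNA they were intronic peaks nearest to NOL4L (score 28) and to the mitochondrial fission gene FIS1 (score 25). The likeness is over 1 list of 1145 peaks with a start distance and describes the shape and place of peaks alone.

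Relatives of the members are given beside the 3.66% of all protein-coding genes with a peak. Of 6 actin genes, ACTA1 and ACTA2 were nearest to a peak, and the cytoplasmic actin genes ACTB and ACTG1 and the muscle actin genes ACTC1 and ACTG2 were not. CNN1 was the single one of 3 calponin genes, and ACTN4 the single one of 4 alpha-actinin genes, with a peak. Of these 4 genes with a peak, all but ACTA1 are members chosen for having one.

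A list of 100 contractile and actin genes in 7 roles, which holds the 5 members, gave the wider view. Nearest to a peak at any distance were 9 of 100 genes (exact Clopper-Pearson 95% interval 4.20% to 16.4%, over genes only), beside 3.66% of protein-coding genes. Of the 9, 5 were the members, which had been chosen for having a peak. Without them the count was 4 of 95, or 4.21% (1.16% to 10.4%), near that of all protein-coding genes. Within 1 kb of a start it was 4 of 100, and 2 of 95 without the members, or 2.11% (0.256% to 7.40%), beside 1.34%. No test of the list was made, since its members were chosen with these results known.

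The other 4 genes were GSN, SYNM, ACTA1 and SMTN, with 5 peaks. GSN encodes gelsolin, which severs and caps actin filaments, and it had a pair of peaks on chromosome 9. The stronger scored 129 (124031085 to 124031387, 796 bp downstream of the start, rank 131.5) and the weaker 36 (124030725 to 124030905, 375 bp downstream), with centres 421 bp apart. SYNM encodes synemin, an intermediate filament protein of muscle. Its peak scored 124 and lay 16091 bp upstream on an Alu repeat (chromosome 15, 99629131 to 99629259). ACTA1, the skeletal muscle actin gene, had a peak of score 96 at its transcript end, 3086 bp downstream of the start (chromosome 1, 229566697 to 229566818). SMTN encodes smoothelin, a protein of contractile smooth muscle, and its peak scored 81 at 641 bp upstream (chromosome 22, 31480288 to 31480395).

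These 5 peaks had a median score of 96, against 57 for the members and 59 for all 1145 peaks with a start distance. Over all 10 peaks of the list the median was 68.5, within a range from 32 to 129. Of the 5 peaks of the other genes, 4 scored above every member, and the weaker GSN peak stood between ACTN4 and FLNA.

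The counts by role hold the members, which were chosen for having a peak, and no role was tested. Of the 16 crosslinkers and bundlers, 3 had a peak (FLNA, FLNC and ACTN4), all of them members. Of the 16 smooth muscle contractile genes, 3 did (CNN1, SMTN and SYNM), and of the 21 genes of actin assembly and turnover, 1 did (GSN). No peak was nearest to any of the 15 genes of non-muscle myosin and its regulators (upper limit of the exact interval 21.8%). The same held for the 18 adhesion linkers (upper limit 18.5%) and the 8 regulators of contractile gene transcription, SRF among them (upper limit 36.9%). At these sizes the limits are all above the 3.66% of protein-coding genes.

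**Figure D5:**
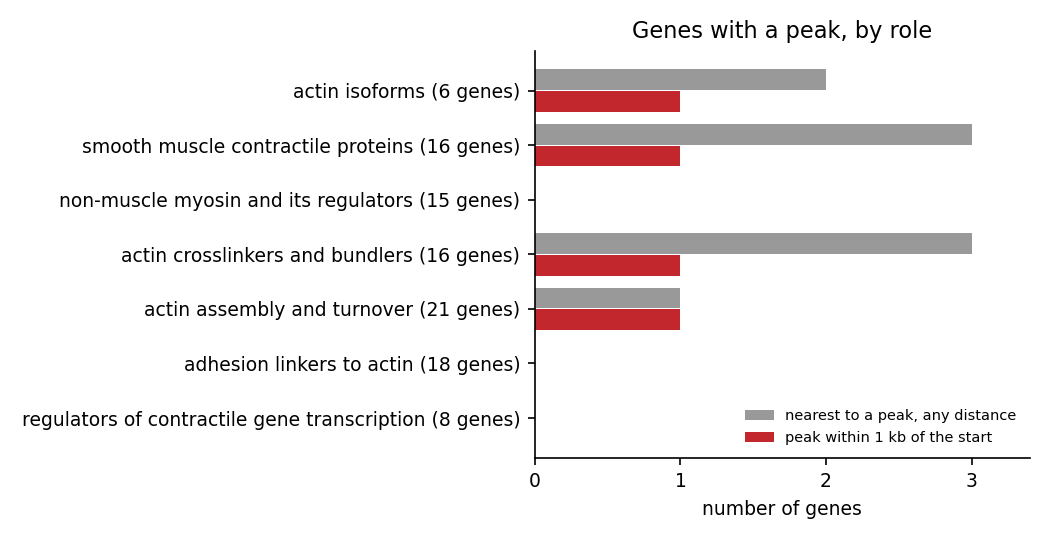
Number of genes with a peak, by role, at any distance (grey) and within 1 kb of the start (red). Peaks are found for 4 of the 7 roles, with at most 3 genes in a role.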

How the data were processed

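The files used were 1 peak list for all 4 libraries, with positions on hg19. MACS2, Bowtie2, HOMER, Picard and deepTools are listed per the submitters' processing notes, with no version and no stated role. A narrow peak list without blacklisted regions was annotated with HOMER, per the file headers. The score is the authors' own whole number per peak. The sources used here do not state the use of the input or the pooling of the ChIP libraries.

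Widths are end minus start plus 1, and a promoter count takes centres within 1 kb of a start. Ranks over the whole list share ties. Ranks on a chromosome, in an annotation class or among promoter peaks naming another gene take the best rank of a tie. Genes were matched by identifier to RefSeq (GRCh38.p14), where all 100 listed genes were found. Transcripts named by the annotation were matched by accession. The search for neighbours was tested on simulated data. Python 3.11.15, pandas 2.3.3, NumPy 2.4.6, SciPy 1.17.1 and Matplotlib 3.10.9 were used.

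The members, the list and its roles were chosen with earlier results of these data known, and no test was made. The genes named are the members, FAS, genes nearest to a peak within 100 kb of a member peak, listed genes nearest to a peak, genes that hold a member peak, and the genes of the 2 peaks most like each member peak. Genes next along a chromosome, relatives without a peak and SRF were named after their values were seen. So were LMOD1, WWTR1, the genes credited with the peaks inside them, and the host genes ZNF653 and TRERF1. One item is not reported here. Alternatives were a higher score, other windows, other crediting of peaks and other rankings.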

Additional observations from a re-analysis of the deposited data

How the results depend on the processing

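No paired analysis was possible because the list has no value for single libraries, and for the same reason no library could be left out. At or above the median score, the members held 2 of their 5 peaks, 0 of the 2 neighbours within 100 kb remained, and the count of listed genes with a peak within 1 kb stayed at 4. By the gene of the annotated transcript, 3 of the 5 peaks were credited to a member, since the ACTA2 peak went to FAS and the CNN1 peak to no gene. With a window of 50 kb there was 1 neighbour, and with 250 kb there were 2. The count of listed genes with a peak followed the window, with 2 within 500 bp (ACTA2 and GSN), 7 within 5 kb and 9 at any distance. All of these counts, and that at or above the median score, include members chosen for having a peak. Shares over all protein-coding genes were counted only within 1 kb (1.34%) and at any distance (3.66%). Nothing is read from the counts at other settings. The ranks of the members shifted by at most 3.62 percentage points over 15 alternatives. The median of the list stood 9.5 score units above that of peaks with a start distance, and 8.5 to 12 above under other comparisons. Without depth or replicates, the error of a score or of a peak's presence is unknown.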

Other observations

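Peaks also lay inside listed genes while nearest to the start of another gene, and the counts by nearest start do not hold them. Intron 1 of LMOD1, the gene of an actin filament nucleator of smooth muscle, held a peak with a score of 28 (chromosome 1, 201885787 to 201885905), which was credited to SHISA4 at 28041 bp from its start. Intron 3 of WWTR1, which encodes the mechanically regulated coactivator TAZ, held one with a score of 21 (chromosome 3, 149266234 to 149266408), which was credited to TM4SF4 at 73837 bp. With these, 11 of the 100 listed genes had a peak, among them the 5 members, which were chosen for having one. The share of all protein-coding genes under this wider crediting was not counted, so nothing is read from the 11. Both scores were below that of FLNA, the weakest member.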
